A study of Rattus norvegicus with 4 samples.

Results

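The genes described here are the ribosomal proteins and translation factors of a rat cDNA array, measured in mesenteric white adipose tissue of rats given oleoyl-estrone (OE). They were taken by name: a spot was a member when its gene name held "ribosomal protein", "elongation factor", "initiation factor" or "tRNA synthetase" and did not hold "kinase". Of the 1185 spots of the array, 20 met this rule. They comprised 14 ribosomal proteins, 7 of the small and 7 of the large subunit, 3 initiation factors and 3 genes named elongation factors, while no spot was named a tRNA synthetase. One of the last 3, the SIII P15 subunit, is elongin C, a partner of RNA polymerase II and of ubiquitin ligases, so that it belongs to transcription and not to translation and is described apart.

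The animals were female Wistar rats weighing 220 to 230 g at the start, of an age not given in the sources used here. OE is the oleic acid ester of estrone, an estrogen. The treated rats received it by stomach cannula at 10 μmol/kg per day for 2 days in 0.2 ml of sunflower oil, and the controls received the oil without OE. The fat around the intestine was taken at 48 h from both groups. The RNA of 2 rats per group was hybridized, 1 rat to an array, and the arrays are called control 1, control 2, OE 1 and OE 2.

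The ribosome is built of a small subunit, which reads the messenger RNA, and a large subunit, which joins the amino acids, and each ribosomal protein is present once or a few times in the finished particle. Initiation factors bring the small subunit to the messenger RNA, and elongation factors move the ribosome along it. In mammals the messenger RNAs of ribosomal proteins and of elongation factor 2 begin with a run of pyrimidines, the 5′ terminal oligopyrimidine (TOP) motif, through which nutrient and growth signals set how strongly they are translated. An array measures how much messenger RNA is present and not how well it is translated.

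All 20 members were found by symbol in the RefSeq gene table of the rat build GRCr8, and 15 had a promoter sequence there. The 30 bases around the annotated start of transcription are shown for 7 members that the comparisons below return to, 20 bases before it and 10 from it onward, on the strand of the gene, with a TOP match in capitals. A match was a C followed by at least 4 pyrimidines that began within 10 bases of the annotated start on the strand of the gene. Only the first such run of a window is in capitals. For S3A this run ends before the annotated start, and a longer run that spans the start is left in lower case.
L12 (chr3:36661920-36661949, +): tgggcggagcaacatccgtCTTTTCggctt
S4 (chrX:71342912-71342941, -): caggctccagcgcgcgcagCCTCCgaccct
S3A (chr2:173827033-173827062, -): cgcgcgagttgtaCTTCCgcccttttggct
L10 (chrX:157205830-157205859, +): atgcgcaggcgtgggagcgtCTCTTTTCCT
L19 (chr10:83519044-83519073, +): gagcccgcgaccagcaagCTCTTTCCTTTC
S12 (chr1:23500055-23500084, +): catgcgcacagaagcccagcagagcgctta
eIF-5 (chr6:136410313-136410342, +): cgggacccggggccgagggtagcttgagcg
Such a match was found for 8 of the 15 members (53.3%), all of them ribosomal proteins, and for 28.9% of the 33469 promoters of the table. For L10 and L19 the run was 12 bases long, of which L10 shows the first 10, and for L12 it was 6. L12 and S4, which were higher in OE-treated rats, and L10, whose values relative to the array medians differed little, all held the match. An annotated start can lie some bases from the true one, and no match says only that these letters are not in this window. Other motifs were looked for in the whole window of 300 bases. On both strands, CCGGAAG, bound by ETS factors, was found for 2 of the 15 members and 8.75% of all promoters, and GCCATCTT, bound by YY1, for 2 of 15 and 3.17%. On the strand of the gene, TATAAA was found for 3 of 15 and 8.80%.

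The values are adjusted intensities, that is the spot intensity minus the background, divided by the median of the array, and are given as array medians. Values of the single arrays are given in the order control 1, control 2, OE 1, OE 2. The median adjusted intensities were 14, 9, 22 and 17, and the background lay between 54 and 61. A spot was taken as over background when its adjusted intensity reached 2 times the background. This was met on all 4 arrays by 100 of the 1185 spots and by 16 of the 20 members, so that the members were among the bright spots of this array. S4 reached it on both OE arrays alone, eIF-5 on OE 1 alone and MEF-G on control 2 alone, and eIF-4E reached it on no array. The ratio of OE to control is that of the group means. For the fit, all values were raised to a floor of 0.235 array medians, and a gene entered when both arrays of at least 1 group lay above the floor. All 20 members were among the 922 genes that entered, and none of them had a value at the floor. Control 2 stood apart from the other arrays in its cell type markers, and OE 2 alone showed markers of intestine, with values given further on. Results that rest on either array are therefore given without it as well. Intensities of different spots were not compared with each other, since each spot has its own probe. The number of arrays limits the precision, and in a piece of tissue fewer cells of a type and less RNA per cell cannot be told apart.

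**Figure D1:**
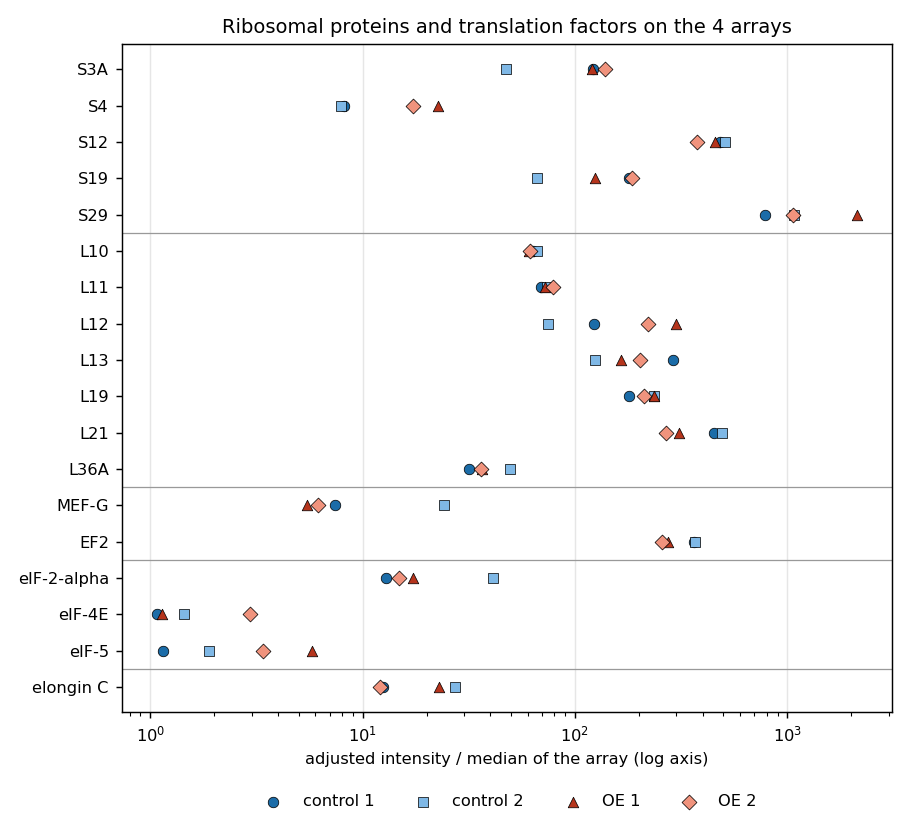
Adjusted intensity of 18 members in array medians (horizontal log axis), 1 point per array, with lines between the small subunit, the large subunit, elongation factors, initiation factors and elongin C. For S3A and S19 the point of control 2 lies to the left of the other 3, and for L10 and L11 the 4 points nearly coincide.

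In array medians, L12 and S4 were the ones among the 14 ribosomal proteins whose OE values both exceeded both control values. The ratio of the means was 2.63 for L12. For L21, S12 and L10 the OE values were the lower ones on both arrays. The other 9 overlapped between the groups. No ribosomal protein passed the test: with limma the adjusted p over all 922 genes was 0.957 for L12 and S4.

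L12 is a protein of the large subunit at the base of its stalk, where elongation factors bind. The control rats had 122 and 75 array medians and the OE-treated rats 298 and 221. Both OE arrays thus lay above both controls, and the means of the groups were 260 ± 54.2 with OE against 98.7 ± 33.5 without (SD, n = 2 each). Taking each OE array over each control array, the smallest quotient was 1.81 and the largest was 3.97. limma gave a log2 fold change of 1.42 with a standard error of 0.62 and an unadjusted p of 0.0720. The ratio was above 1 under all 8 scalings of the arrays that were tried, from 1.48 with the housekeeping genes to 4.32 without scaling. With the housekeeping genes as the divisor, S29 included or not, the groups overlapped for L12. Its ratio was 2.12 without control 2, 3.46 without control 1 and 3.02 without OE 2.

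S4, a small subunit protein, had adjusted intensities of 115 and 71 in the controls and of 500 and 294 in the OE-treated rats. In array medians these were 8.21, 7.89, 22.7 and 17.3, so that the controls lay close together and both OE arrays lay above them. Since neither control reached 2 times the background, the controls give an upper limit. Against the dimmest spots over background on the control arrays, and in array medians, S4 was at least 1.93-fold higher in OE-treated rats. The measured means were 20.0 ± 3.84 with OE against 8.05 ± 0.230 without (SD, n = 2 each). limma gave a log2 fold change of 1.30 with a standard error of 0.58 and an unadjusted p of 0.0754. The measured ratio of 2.49 was above 1 under all 8 scalings, from 1.46 to 4.27, and was 2.44 without control 2 and 2.82 without OE 2. Where the housekeeping genes other than S29 were the divisor, the groups overlapped for S4. By array code its spot lies between those of S12 and L11, both brighter, whose ratios were 0.839 and 1.06.

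S29 is the small subunit protein that the array also carries as 1 of its 9 housekeeping spots. Its levels were 784 and 1069 array medians in the controls against 2137 and 1067 after OE. The ratio of the means was 1.73, but OE 2 lay marginally below control 2, so that the groups overlapped. The OE arrays differed from each other by 2.00-fold, and S29 was the only one of the 16 members over background on all 4 arrays for which they differed by over 2-fold. The ratio was 1.15 without OE 1 and 2.31 without OE 2. It was above 1 under all 8 scalings, and came down to 1.06 where the housekeeping genes, S29 among them, were the divisor and to 1.07 where the other 8 were.

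In array medians, L21, S12 and L10 were lower on each OE array than on each control array. L21, of the large subunit, had 452 and 492 array medians in the controls and 309 and 268 with OE, with a ratio of 0.611. The means were 288 ± 29.2 with OE against 472 ± 28.3 without (SD, n = 2 each), a difference larger than the SD of either group. Its log2 fold change was -0.71 with a standard error of 0.57, and limma gave an adjusted p of 0.957. Leaving out 1 array at a time kept the ratio of L21 between 0.567 and 0.655. S12, of the small subunit, had 482, 509, 456 and 376 in the same order of arrays, and a ratio of 0.839. L10, which helps to join the subunits, had 63.6, 66.1, 60.5 and 61.5 and a ratio of 0.940. This direction depended on the scaling: L21 was above 1 without scaling (1.06), and S12 and L10 were above 1 without scaling (1.45 and 1.60), after quantile normalization (1.13 and 1.09) and relative to the bright genes other than the members (1.04 and 1.17). S12 and L10 were also above 1 without background subtraction (1.23 and 1.34) and with normexp (1.25 and 1.35).

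Of the other large subunit proteins, L11, a regulator of the p53 pathway outside the ribosome, had 68.9, 73.7, 72.5 and 78.9 array medians. L19 had 179, 235, 235 and 212. L36A, which the array also lists as L44, had 31.7, 49.3, 36.6 and 36.2. These 3 proteins had ratios of 1.06, 1.08 and 0.899, and the groups overlapped for each. L13 had 288 and 124.9 in the controls and 164 and 202 after OE, so that the controls lay on either side of the OE arrays. Without control 2 the ratio went from 0.886 to 0.635 for L13 and from 0.899 to 1.15 for L36A, and without control 1 it was 1.46 for L13.

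**Figure D2:**
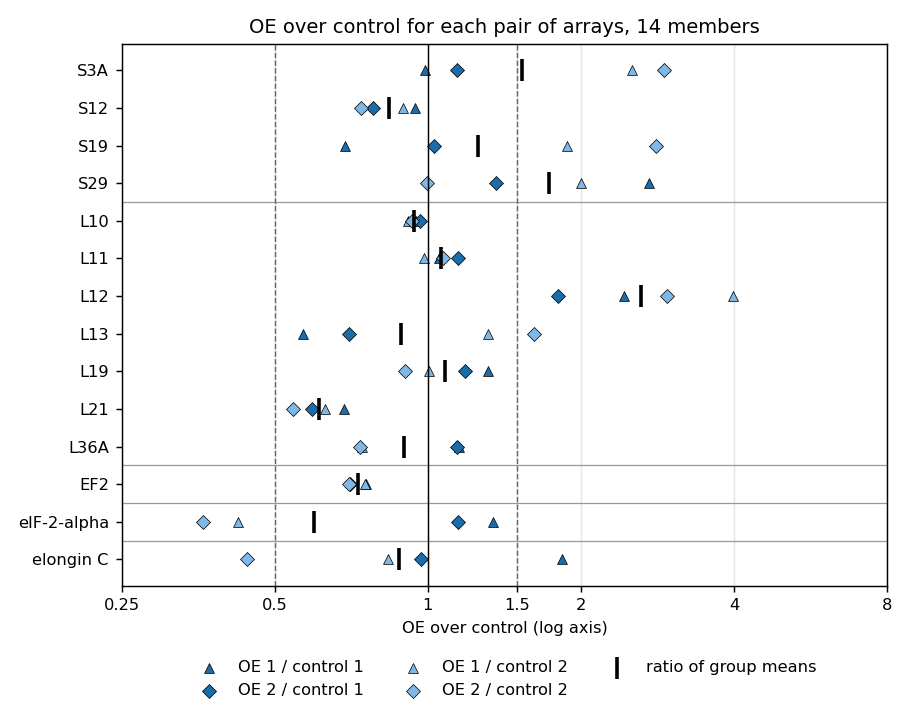
Ratio of each OE array to each control array (4 points, log axis) and ratio of the group means (bar) for 14 members over 2 times the background on all 4 arrays, with broken lines at 0.5 and 1.5. All 4 points of L12 lie above 1.5, and those of S19 and S3A lie higher with control 2 than with control 1.

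Of the small subunit proteins, S3A and S19 were much dimmer on control 2 than on any other array, and their ratio depended on which control was used. S19, whose human gene is mutated in Diamond-Blackfan anemia, had 180 and 66 array medians in the controls and 124 and 185 with OE. S3A, also named the v-fos transformation effector Fte-1, had 122, 47.6, 120 and 139 in the same order of arrays. Control 2 was the lowest of the 4 arrays for both proteins, and control 1 lay within the range of the OE arrays. The ratios of the means were 1.26 for S19 and 1.53 for S3A. Without control 2 they were 0.859 and 1.07, and without control 1 they were 2.34 and 2.72. For both proteins the means differed by less than the SD of the control group.

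Of the translation factors, EF2 and eIF-2-alpha were over background on all 4 arrays. Elongation factor 2 (EF2), which moves the ribosome by 1 codon at a time, had 364 and 366 array medians in the controls and 275 and 256 in the OE-treated rats. In array medians the controls were nearly equal and both OE arrays lay below them, with a ratio of 0.728. The means were 266 ± 13.6 with OE against 365 ± 1.16 without (SD, n = 2 each). Leaving out 1 array at a time kept the ratio between 0.702 and 0.755. The log2 fold change was -0.46 with a standard error of 0.57, and limma gave an adjusted p of 0.957. By the ratio of the means, EF2 was lower in OE-treated rats under 7 of the 8 scalings and higher without scaling (1.24). Both OE values lay below both controls in array medians and with the housekeeping genes, S29 included or not. Under the rest of the 8 scalings the groups overlapped. The ratio was also above 1 without background subtraction (1.06) and with normexp (1.07).

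The mitochondrial elongation factor G (MEF-G), which does the same in mitochondria, had adjusted intensities of 104, 217, 121 and 105. In array medians these were 7.43, 24.1, 5.5 and 6.18, so that control 2 stood apart from the other 3 arrays. Only control 2 reached 2 times the background. The measured means were 5.84 ± 0.478 with OE against 15.8 ± 11.8 without (SD, n = 2 each), with an adjusted p of 0.957 from limma. The measured ratio was 0.370, and 0.786 without control 2, where no array reached that limit. Over the 8 scalings it lay between 0.245 and 0.704.

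The alpha subunit of initiation factor 2 (eIF-2-alpha) is the protein whose phosphorylation holds back initiation when a cell is under stress. It had 12.9 and 41 array medians in the controls and 17.4 and 14.8 with OE. Control 2 was again apart, here above the others, and the ratio of 0.597 became 1.24 without it. Initiation factor 5 (eIF-5), which makes the small subunit ready for the large one to join, had adjusted intensities of 16 and 17 on the controls, 127 on OE 1 and 58 on OE 2. Both OE values lay above both controls, but only OE 1 reached 2 times the background, and no fold is given. The cap-binding protein eIF-4E had 15, 13, 25 and 50 and was not over this limit on any array. Elongin C, the transcription factor among the members, had 12.4, 27.3, 22.9 and 12.1 array medians and a ratio of 0.878, with overlapping groups. The ratio was 1.40 without control 2, 1.15 without OE 2 and 0.607 without OE 1.

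Counted over the members, 7 of 20 had a ratio over 1.5, against 18.9% of all 922 genes tested, and 1 of 20 a ratio under 0.5, against 18.3%. Among the 7 were L12, S4, S29 and S3A, as well as eIF-5 and eIF-4E, which were counted by their measured values although no fold is given for them. The 1 was MEF-G, over background on control 2 alone. Since the members are bright, the 100 spots bright enough to pass this limit on every array are the nearer background. Of these, 5% had a ratio over 1.5 and 16% a ratio under 0.5. The 16 members among them made up 4 of the 5 genes over 1.5, L12, S29 and S3A among them, and none of the 16 genes under 0.5. These counts rested on control 2 in large part: without it 2 of the 16 members, L12 and S29, and 14 of the 84 other bright genes were over 1.5, and 1 of the 84 was under 0.5. Without OE 2 it was 2 of the 16 and 5 of the 84 that were over 1.5. Both OE values lay above both control values for 3 members (L12, S4 and eIF-5) and for 14.1% of all genes tested, and below both for 5 members (L21, S12, L10, EF2 and MEF-G) and for 15.8%. Among the 100 bright genes these shares were 6% above and 26% below, against 1 and 4 of the 16 members.
The median ratio was 1.07 over the 20 members and 0.895 over all genes tested, and 1.00 over the 16 bright members against 0.737 over the other 84 bright genes. The median ratio of control 2 to control 1 was 1.05 over these 16 and 1.82 over these 84, and their contrast was not computed without control 2. On the log2 scale the median of the 20 members lay 0.26 above that of all genes. This difference was 0.01 without control 2 and 0.64 without control 1. With limma 0 members and 0% of all genes had an adjusted p under 0.05. At an unadjusted p under 0.05 there were 0 members and 2.06% of all genes. The 16 bright members had log2 fold changes from -0.71 to 1.42, standard errors from 0.57 to 1.10 and adjusted p from 0.957 to 0.989. The smallest two-sided p that an exact permutation test of 2 against 2 arrays allows is 0.333, so that none was run.

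**Figure D3:**
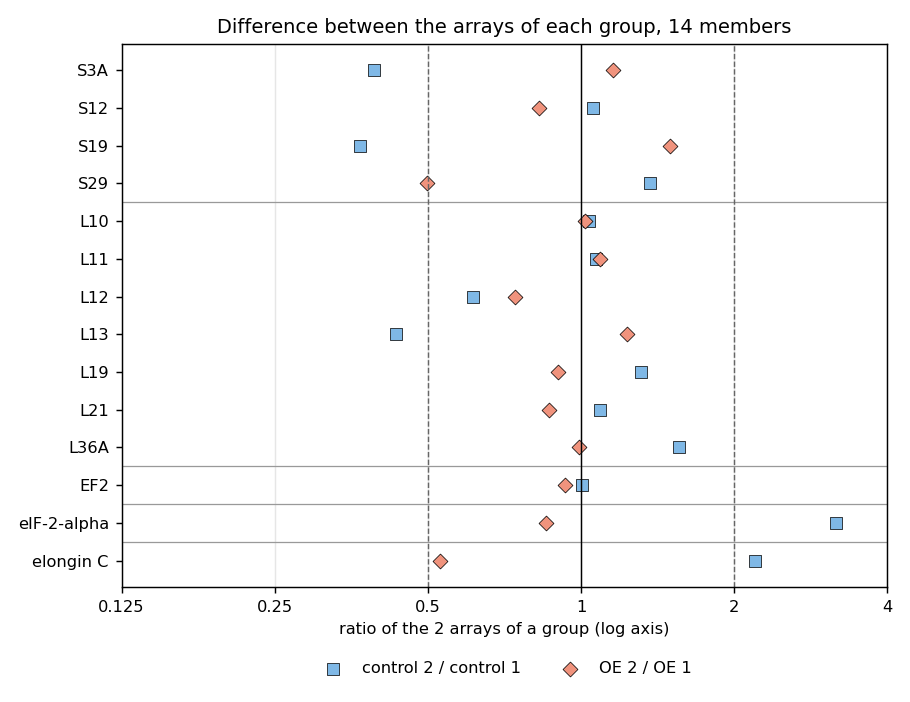
Ratio of control 2 to control 1 (squares) and of OE 2 to OE 1 (diamonds) for 14 members over 2 times the background on all 4 arrays (log axis, broken lines at 0.5 and 2). The squares of S19, S3A and L13 lie left of 0.5, and all diamonds but that of S29 lie between the broken lines.

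The spread between the rats of a group, read in array medians, differed between the ribosomal proteins. The controls differed by 2.72-fold for S19, by 2.55-fold for S3A and by 2.31-fold for L13, with control 2 the lower in each case. In contrast, the controls differed by at most 1.09-fold for EF2, L10, S12, S4, L11 and L21. For S19, S3A and L13 the OE arrays differed by less than 1.5-fold. In array medians, control 2 was under 0.5 times control 1 for 5 of the 16 bright members and for 8% of the 100 bright genes, that is for 3 of the 84 that are no members. It was over 2 times control 1 for 2 of the 16 (eIF-2-alpha and elongin C), against 40% of the 100. Over the 7 small subunit proteins the median ratio of control 2 to control 1 was 0.391, and over the 7 large subunit proteins 1.07. Over all 14 ribosomal proteins it was 0.999, and over the 84 other bright genes it was 1.82.

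This difference does not depend on the divisor when it is measured within an array. The geometric mean of the 13 ribosomal proteins among the bright genes, divided by that of the 84 genes that are no members, was 5.57 and 1.91 on the control arrays and 4.80 and 5.86 on the OE arrays. Only differences of this quotient between arrays can be read, since the probes differ. Control 2 had 0.344 times the value of control 1, and the mean of the OE arrays had 0.957 times that value. The quotient does not tell which of its parts changed. The median ratios of 1.82 over the 84 genes and 0.999 over the 14 ribosomal proteins are not its parts, which are geometric means. In adjusted intensity, before any scaling, that of the 13 ribosomal proteins was 2316 on control 1 and 983 on control 2. That of the 84 genes was 416 and 514. For the 6 small subunit proteins among the 13 the quotient on control 2 was 0.227 times that on control 1, and for the 7 large subunit proteins 0.490 times.

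**Figure D4:**
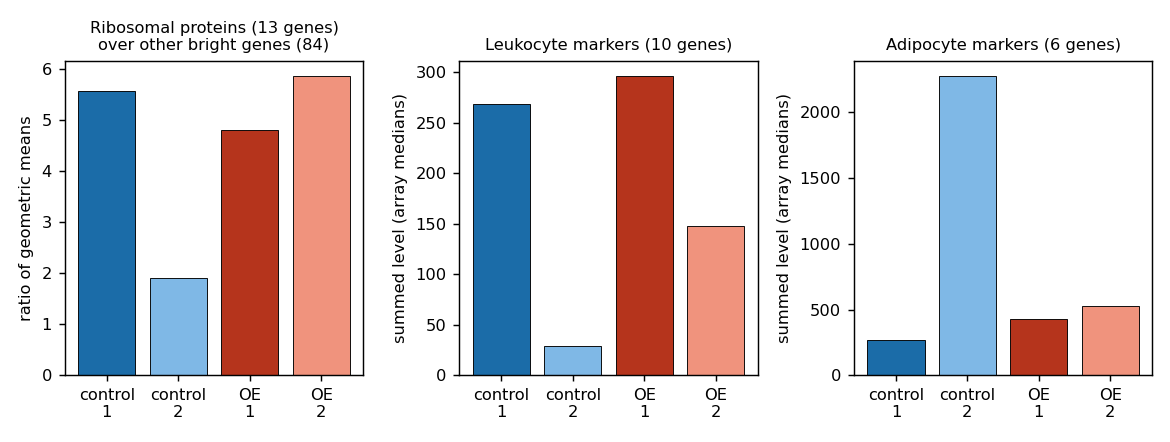
Left, geometric mean of 13 ribosomal proteins over that of 84 other bright genes on each array; middle and right, summed level of 10 leukocyte markers and of 6 adipocyte markers in array medians. Control 2 has the lowest bar in the left and middle panels and the highest in the right one, where most of each sum is FABP4.

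Markers of cell types also set control 2 apart, the array with the lowest quotient. Among the other arrays the quotient was highest on OE 2, which had the lowest leukocyte sum of them. The 6 adipocyte markers, with FABP4 over background on all 4 arrays, summed to 270, 2274, 429 and 525 array medians. Most of each sum was FABP4, with 252, 2115, 401 and 501. For all 6 the value of control 2 was over 2 times that of control 1. Fatty acid synthase and acetyl-CoA carboxylase were over background on control 2 alone, and fatty acid transport protein on no array. The 10 leukocyte markers summed to 269, 29.6, 296 and 148. On control 2 none of them reached 2 times the background, and 3 of them, CD3 zeta, CD8 and the T-cell receptor gamma subunit, were listed at 0. The leukocyte common antigen CD45, carried by all white blood cells, had adjusted intensities of 2038, 71, 3180 and 1319. The 2 mesothelial markers, WT1 and retinaldehyde dehydrogenase, were over background on control 2 and on no other array. Their adjusted intensities were 19, 278, 121 and 37 for WT1 and 30, 165, 10 and 46 for retinaldehyde dehydrogenase. On OE 1, with a background of 61, WT1 lay just under the limit. The 6 intestinal markers summed to 3.57, 3.33 and 4.45 on control 1, control 2 and OE 1 and to 275 on OE 2, where 4 of the 6 were over background. On OE 2 the quotient of the ribosomal proteins was 5.86, against 5.57 on control 1, where all intestinal markers were below 2 times the background. None of the 6 pancreatic markers was over background on any array. The part of these cell types in the values of the ribosomal proteins was not tested.

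**Figure D5:**
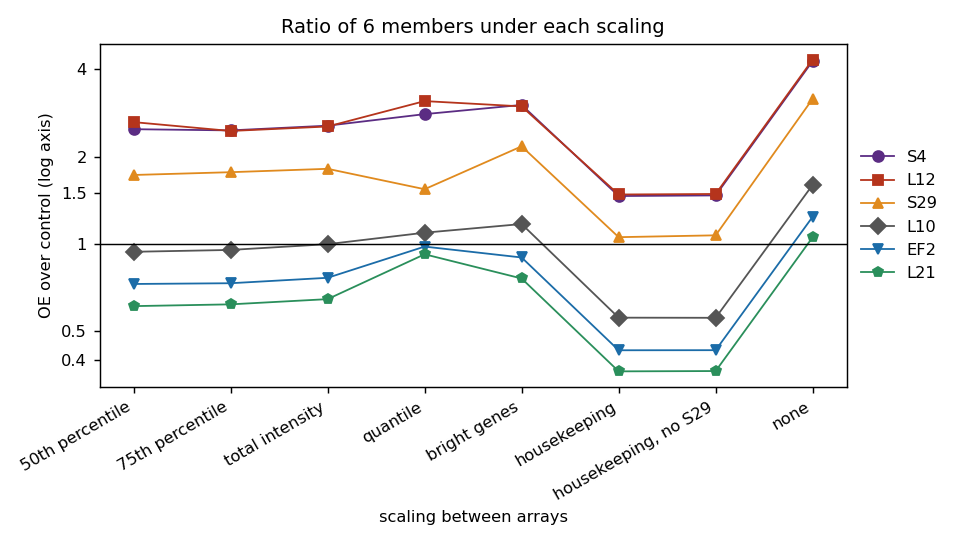
Ratio of OE to control (log axis) of 6 members under the 8 scalings tried, 1 line per gene. The order of the genes is nearly kept, with L12 and S4 on top and L21 lowest throughout, while the level of the lines moves, from below 1.5 with the housekeeping genes to above 4 for L12 and S4 without scaling.

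The scaling shifted the ratios of most genes, and not all by the same factor or in the same direction. Quantile normalization raised the ratio of L12 to 3.11 and lowered that of S29 to 1.54. The median log2 ratio of all genes was -0.16 in array medians, -0.91 with the housekeeping genes as the divisor and 0.63 without scaling. The median of the members lay between 0.21 and 0.33 above that of all genes over the 8 scalings. A divisor moves the members and all genes of an array alike, so that this narrow range was largely set by the measure. Unequal change among the members was therefore read within each array, against the geometric mean of the 13 bright ribosomal proteins, a divisor chosen after the data were seen. Relative to it L12 had 0.740, 0.687, 1.76 and 1.32, and L21 had 2.73, 4.51, 1.83 and 1.60. EF2 had 2.20, 3.35, 1.63 and 1.53. By this measure as well L12, S4 and eIF-5 had both OE values above both controls, and L21, S12, L10, EF2 and MEF-G had both below. For L12 the ratio was 2.16 and for L21 0.473, so that on these arrays both moved apart from each other within the set. Both are part of the divisor, and the ratio of L21 rests in part on its value of 4.51 on control 2.

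Genes that act on the ribosome were sought by name among the other spots. The ribosomal S6 kinase Rsk and FRAP, the rapamycin target also known as mTOR, were the ones found, and a name search for translocation added glycerol kinase, which has no part in translation. All 3 were below 2 times the background on every array, so that no fold is given. The adjusted intensities of Rsk were 18, 2, 37 and 18, and those of FRAP were 12, 3, 20 and 17. Of these 3 genes, 0 had an adjusted p under 0.05 with limma. Besides S29, the 4 housekeeping genes over background on all 4 arrays had ratios between 0.794 (beta-actin) and 1.10 (GAPDH) in array medians. All of them were below the ratio of S29.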

How the data were processed

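The deposited values are the intensity readings that the authors took from phosphorimager scans of nylon cDNA arrays with Atlas Image: spot, background and adjusted intensity, the last being their difference with negatives set to 0, without scaling between arrays. The second array that each file also holds, 12 columns in all, and the software's own ratios were left aside. A series-wide table served as an alternative. Its OE 1 value differed in 239 of 933 spots matched by the other 3 arrays, and for 0 of the 20 members.

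Groups came from the labels. Adjusted intensities were expressed relative to each array's 50th percentile, as in the study's methods, and floored at the 10th percentile of the positive values. The GeneSpring filter of the methods was not repeated. Log2 values of 922 genes were fitted in R 4.3.3 with limma 3.58.1 (lmFit, eBayes, Benjamini-Hochberg adjustment, threshold 0.05). The code was checked beforehand on simulated data. The pass condition of that check was set at a low noise only, so that it does not speak for the spread of these arrays. Ratios over 1.5 and under 0.5 were counted. The limit of 2 times the background is the one at which the software itself gave ratios.

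The values of 2 members and 1 sequence are not reported here, and counts over the members include them. The other members are named, and further genes only from lists for translation, housekeeping and cell types. The members and lists were chosen with earlier results of these data known. Floors at the 25th or 1st percentile, other filters, scalings, background corrections, means and fits, the series table and leaving out each array were the alternatives. Scaling to the ribosomal proteins was added after the data were seen. RefSeq sequences are of build GRCr8, and member symbols were assigned by hand from the gene names. The arrays of a group are different rats, and no depth applies to intensities.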

Additional observations from a re-analysis of the deposited data

How the results depend on the processing

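Under all 23 alternatives limma called 0 members at an adjusted p under 0.05. The counts of 7 members with a ratio over 1.5 and 1 under 0.5 became 1 and 6 with the housekeeping genes as the divisor (5.14% and 45.2% of all genes), 1 and 5 with those other than S29 (5.25% and 44.8%), 14 and 0 without scaling (50.7% and 3.04%), and 3 and 3 with the ribosomal proteins as the divisor (10.97% and 31.1%). The count under 0.5 was also 0 relative to the bright genes other than the members, with genes over 2 times the background on both arrays of a group (17 members left), without background subtraction and with normexp. The last 2 moved the difference of the medians from 0.26 to 0.54 and 0.56. Leaving out single arrays, which takes the lone array of a group to have the spread of the other group, gave counts of 4 to 7 and of 0 to 2, against 18.7% to 30.1% and 12.1% to 30.96% of all genes, and differences of 0.012 (without control 2) to 0.64 (without control 1). Of the 9 housekeeping spots, phospholipase A2, tubulin alpha-1 and myosin heavy chain 1 were over background on no array, and ornithine decarboxylase on OE 1 alone. In array medians their measured ratios were 3.38, 3.73, 1.39 and 3.35, against 0.794 to 1.10 for the bright ones other than S29. Both housekeeping divisors are geometric means, in which dim spots count as much as bright ones. With the housekeeping genes, or those other than S29, the ratio of S3A fell below 1 (0.830 and 0.824), as did those of S19 (0.678 and 0.670), L11 (0.632 and 0.630) and L19 (0.657 and 0.658). Ratios above 1 numbered 11 of 20 members in array medians, 4 with either of these divisors, 19 without scaling and 17 without background subtraction or with normexp. The causes were not tested. Across genes the deviations of same-numbered arrays correlated at 0.0495, which gave no sign that the numbers pair the rats. This cannot exclude a pairing, since control 2 and OE 2 stood apart in their cell type markers. With the replicate block limma called 0 members. The limit of 2 times the background leaves S4 with a bound, MEF-G with measured values only and eIF-5 and eIF-4E with no fold.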
